A study of Mus musculus with 4 samples.

Results

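Matrix metalloproteinases (MMPs) are zinc-dependent enzymes that cleave collagens, laminins and other proteins around cells, and tissue inhibitors of metalloproteinases (TIMPs) block them by binding the catalytic site. The genes described here are 3 inhibitors (Timp1, Timp2 and Timp3), 5 metalloproteinases (Mmp2, Mmp9, Mmp11, Mmp14 and Mmp15) and Reck, which encodes a membrane-anchored inhibitor. These 9 of the 41543 gene symbols counted were chosen by name, with their fold changes between the groups in these libraries already known, so those differences are given as a description and carry no p-value. All 9 were expressed highly enough to enter the comparison, in which 16112 genes were tested.

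The cells were E14TG2a, a mouse embryonic stem (ES) cell line kept in medium with 15% serum and 100 units/ml of the cytokine LIF on gelatin. KAT6A KO cells, in which the histone acetyltransferase KAT6A was targeted by CRISPR/Cas9 editing, were compared with Control cells of the same line that carried no named edit. Each group had 2 libraries of polyadenylated RNA, and the labels do not say whether these came from separate clones or cultures, so the spread between them may be technical. KO 1 and KO 2 stand below for the libraries labelled KAT6A KO replicates 1 and 2.

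In tissues, these enzymes and inhibitors form a linked system rather than separate activities. TIMP2 bridges MMP14 and the inactive form of MMP2 at the cell surface, where a second MMP14 molecule starts the activation of MMP2, while an excess of TIMP2 blocks MMP14. In the early mouse embryo the system is known for the remodelling of basement membranes and for the invasion of trophoblast into the uterus.

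The libraries held 27494041 to 37354623 counts. Kat6a itself had 242 and 86.4 CPM (counts per 1000000 library counts, scaled by TMM, a correction for library composition) in KO 1 and KO 2, against 145 and 143 CPM in the controls. Where in the gene the edit lies is not known here, so the labels could not be checked against this level, which was higher than the controls in KO 1 and lower in KO 2. The KO libraries lay further apart than the controls, with an SD over genes of the log2 ratio of 0.51 within the KO pair and 0.29 within the control pair. The ES cell markers fixed for the check of the label were all present. Their summed level was 5490 and 6098 CPM in the KO libraries, against 4460 and 4518 CPM in the controls. Higher calls (edgeR adjusted p under 0.05) were made for 2 of these 8 markers, and the list's median log2 fold change was 0.35. Of the 8 fibroblast markers, 4 (Col3a1, Dcn, Lum and Postn) stayed under 1 CPM in every library, and the list summed to 30.0 and 25.3 CPM in the KO libraries and 21.8 and 21.7 CPM in the controls. Markers of parietal and primitive endoderm were all detected, with a summed level of 231 and 449 CPM in KO 1 and KO 2, against 956 and 917 CPM in the controls, and 6 of the 8 were lower (edgeR adjusted p under 0.05). Trophoblast markers summed to 70.9 and 75.1 CPM in the KO libraries, against 88.5 and 93.9 CPM in the controls, with 4 of 7 tested lower (edgeR adjusted p under 0.05), a median log2 fold change of -1.05, and Cdx2 and Elf5 under 1 CPM in every library. Of the endothelial and macrophage markers, 1 of 5 and 1 of 2 tested were lower. Over all tested genes, 5.76% were higher and 8.57% lower at this threshold. In RNA from whole cultures, fewer cells of a type and less RNA per cell cannot be told apart.

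Among the inhibitors, Timp2 and Timp3 were lower in the KO libraries and Timp1 stayed close to the control level. Timp2 encodes the inhibitor that also takes part in MMP2 activation. It had 9.33 and 10.1 CPM in KO 1 and KO 2, against 47.7 and 45.7 CPM in the control libraries, from 284 and 278 counts in the KO libraries and 1695 and 1694 counts in the controls. Both KO libraries thus lay far below both controls, and the distance between the groups was many times the distance within either. The log2 fold change was -2.26 ± 0.11 (SE), which is 4.81-fold lower. The gene lies on chromosome 11 at 118301069 to 118355740 (minus strand, GRCm38 with GENCODE M21), and genes on this chromosome were lower as a whole.

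Timp3 encodes the inhibitor that stays bound to the extracellular matrix and also acts on ADAM proteases. It had 27.6 and 29.9 CPM in KO 1 and KO 2, against 53.7 and 53.5 CPM in the controls. The groups did not overlap, and the libraries within each group were close to each other. The log2 fold change was -0.90 ± 0.10 (SE), which is 1.86-fold lower. Timp3 lies on chromosome 10 at 86300372 to 86349506 (plus strand).

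Timp1, on chromosome X at 20870166 to 20874735 (plus strand), encodes a secreted inhibitor with weak action on membrane-type MMPs. It had 19.2 and 20.3 CPM in KO 1 and KO 2, against 22.8 and 21.6 CPM in the controls. Both KO libraries were below both controls, but by little more than the distance between libraries of a group, and the log2 fold change was -0.17 ± 0.11 (SE). It was not past the threshold of an adjusted p of 0.05 in the edgeR quasi-likelihood fit across all genes. Reck, on chromosome 4 at 43875530 to 43944806 (plus strand), encodes an inhibitor tethered by a lipid anchor. It had 17.5 and 12.6 CPM in KO 1 and KO 2, against 18.5 and 18.6 CPM in the controls, a log2 fold change of -0.30 ± 0.17 (SE). KO 1 lay close to the controls and KO 2 well below them, so the value rests on KO 2.

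Because the study's title deals with KAT6A binding at CpG islands, CpGs were counted in the 250 bases before the RefSeq start (GRCm38.p6). This was done for 7 of the members, since no window was at hand for Mmp2 and Mmp9. The windows of Timp3 and Timp1 are shown 5′ to 3′ on the gene's strand with CpG dinucleotides in capitals. They serve as a CpG-richer and a CpG-poorer example. RefSeq starts can differ from the GENCODE gene bounds given here. For Timp1 they are the same. The RefSeq start of Timp3 lies 40 bases inside the GENCODE gene, and those 40 bases, which GENCODE gives as untranslated region, are left out of the printed sequence. That of Timp2 lies 329 bases inside, so that its whole window is within the GENCODE gene, and its sequence is not printed.
Timp3 promoter, chr10:86300162-86300371, plus strand: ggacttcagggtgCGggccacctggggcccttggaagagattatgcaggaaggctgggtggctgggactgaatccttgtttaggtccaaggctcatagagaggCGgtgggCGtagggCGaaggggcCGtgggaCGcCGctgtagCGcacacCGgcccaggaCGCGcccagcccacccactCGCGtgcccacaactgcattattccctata
Timp1 promoter, chrX:20869916-20870165, plus strand: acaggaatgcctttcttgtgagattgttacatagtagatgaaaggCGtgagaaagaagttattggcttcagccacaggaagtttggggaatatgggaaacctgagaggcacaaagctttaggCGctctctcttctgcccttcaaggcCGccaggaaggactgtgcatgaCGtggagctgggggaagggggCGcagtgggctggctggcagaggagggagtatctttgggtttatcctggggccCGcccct
Counted over all 250 bases, the Timp2 window held 21 CpGs, the Timp3 window 18 and the Timp1 window 6. The ratio of observed to expected CpGs was 0.744, 0.672 and 0.352 in the same order. The Timp3 values cover the 40 bases left out of the print, so its printed sequence shows fewer CpGs. Over the 11975 tested genes with such a window, the median was 15 CpGs and a ratio of 0.703. Timp2 and Timp3 were therefore near the middle of all tested genes in CpG ratio, at the 55.7th and 45.8th percentile, and Timp1 was low, at the 17.5th. Reck held 19 CpGs, with a ratio of 0.651.

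**Figure D1:**
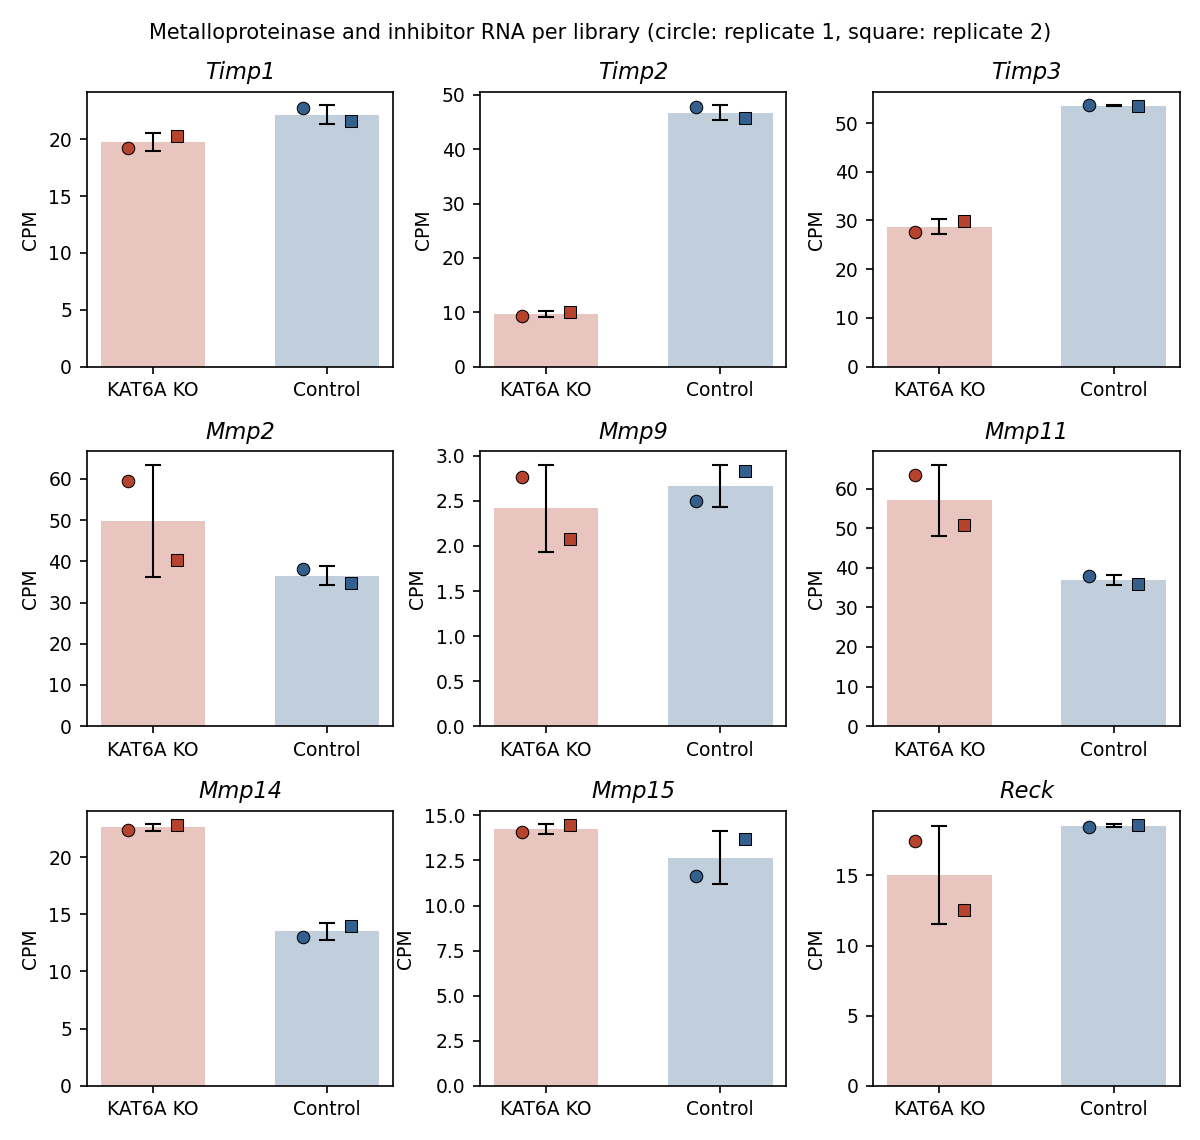
Normalised level (CPM, each axis from 0) of each gene in the KAT6A KO and Control libraries. Bars are means, error bars the SD of 2 libraries, circles replicate 1 and squares replicate 2. Timp2 and Timp3 lie lower in both KO libraries, Mmp11 and Mmp14 higher in both, and the Mmp9 groups overlap.

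Among the metalloproteinases, Mmp11 and Mmp14 were higher in both KO libraries, Mmp2 was higher mainly in KO 1, and Mmp15 and Mmp9 differed little. Mmp14 encodes a membrane-type MMP that cleaves collagen at the cell surface and activates MMP2. It had 22.4 and 22.8 CPM in KO 1 and KO 2, against 13.0 and 14.01 CPM in the controls. The KO libraries were close to each other and lay above both controls. The log2 fold change was 0.74 ± 0.12 (SE), or 1.68-fold. Mmp14 lies on chromosome 14 at 54431612 to 54445364 (plus strand).

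Mmp11 encodes stromelysin-3, a secreted MMP that is already active when it leaves the cell because furin cuts off its inhibitory part. It had 63.4 and 50.7 CPM in KO 1 and KO 2, against 37.8 and 35.9 CPM in the controls. The groups did not overlap, although the KO libraries differed from each other more than the controls did. The log2 fold change was 0.63 ± 0.13 (SE), or 1.55-fold. Mmp11 lies on chromosome 10 at 75923222 to 75936496 (minus strand).

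The windows before the RefSeq starts of these genes are shown in the same way, because Mmp11 and Mmp14 had the highest positive fold changes of the group. The RefSeq start of Mmp14 lies 14 bases before the GENCODE gene. That of Mmp11 lies 3994 bases inside the GENCODE gene, so its window is within a longer gene model, where it covers 0 exon bases.
Mmp14 promoter, chr14:54431348-54431597, plus strand: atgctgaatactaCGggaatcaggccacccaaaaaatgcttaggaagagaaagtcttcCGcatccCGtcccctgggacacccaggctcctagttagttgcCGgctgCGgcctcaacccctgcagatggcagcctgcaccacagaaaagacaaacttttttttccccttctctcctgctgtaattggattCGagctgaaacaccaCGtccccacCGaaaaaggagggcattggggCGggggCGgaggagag
Mmp11 promoter, chr10:75932503-75932752, minus strand: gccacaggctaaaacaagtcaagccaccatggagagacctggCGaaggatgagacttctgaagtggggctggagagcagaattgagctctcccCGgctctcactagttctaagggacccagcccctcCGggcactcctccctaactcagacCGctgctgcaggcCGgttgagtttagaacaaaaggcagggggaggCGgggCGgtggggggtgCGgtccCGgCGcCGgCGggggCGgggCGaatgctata
The Mmp14 window held 10 CpGs with an observed to expected ratio of 0.527, and the Mmp11 window 14 with 0.572, both under the median of tested genes. Mmp15 held 14 CpGs with a ratio of 0.554. The GC box GGGCGG, bound by SP-family factors, was found on either strand in the full 250-base windows of all 7 of the genes with a window. It was found in 57.7% of the windows of tested genes. The match of Timp3 lies in the 40 bases left out of its printed sequence. Of the windows of Timp2 and Mmp15, 203 and 28 bases lie in GENCODE exons. The AP-1 motif TGANTCA and the TATA box TATAAA were found in none of the 7, and in 4.36% and 6.61% of the windows of tested genes. The CCAAT box CCAAT was found in those of Timp1, Timp2, Mmp14 and Reck, and in 36.4% of all. Both strands were searched for every motif, and no motif's letters contain those of another.

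Mmp2, on chromosome 8 at 92827291 to 92853420 (plus strand), encodes gelatinase A, which cleaves type IV collagen and denatured collagens. It had 59.5 and 40.2 CPM in KO 1 and KO 2, against 38.1 and 34.9 CPM in the controls. KO 1 stood far above the controls and KO 2 only just above them, and the log2 fold change of 0.45 ± 0.18 (SE) was not past the threshold. Mmp15, on the same chromosome at 95352268 to 95375080 (plus strand), encodes another membrane-type MMP. It had 14.1 and 14.4 CPM in KO 1 and KO 2, against 11.6 and 13.7 CPM in the controls, a log2 fold change of 0.17 ± 0.14 (SE). Both KO libraries were above both controls, but the gap to the nearer control was smaller than the gap between the controls.

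Mmp9, on chromosome 2 at 164940780 to 164955850 (plus strand), encodes gelatinase B and had the lowest level of the group. Its counts were 84 and 57 in KO 1 and KO 2, against 89 and 105 in the controls. This gives 2.76 and 2.07 CPM in the KO libraries and 2.50 and 2.83 CPM in the controls, and the groups overlapped. With exact 95% Poisson intervals, which cover counting error only, KO 1 ranged from 2.20 to 3.42 CPM and KO 2 from 1.57 to 2.69 CPM, against 2.01 to 3.08 CPM in control 1 and 2.32 to 3.43 CPM in control 2. A difference of the size seen, a log2 fold change of -0.14 ± 0.23 (SE), was thus not detectable at this depth.

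In the fit across all genes, 4 of the 9 members were past the threshold, Timp2 and Timp3 lower and Mmp11 and Mmp14 higher. Of all genes tested 14.3% were past it, 5.76% higher and 8.57% lower. The KO and control libraries did not overlap for 8 of the 9 members, 4 with both KO libraries above and 4 with both below. This held for 64.3% of all tested genes, 31.5% above and 32.8% below. Because the members were chosen with this comparison known, nothing is read from these counts. The authors' deposited table had the same 4 members past its own adjusted p of 0.05, with log2 fold changes of -2.09 for Timp2, -0.84 for Timp3, 0.59 for Mmp11 and 0.68 for Mmp14. Of the genes with an adjusted p in the authors' deposited table, 17.0% were past it. Without either control library, where 5.64% of all genes were past the threshold, Mmp14 and Mmp11 were not past it in the edgeR fit (log2 fold changes of 0.68 to 0.80 and 0.59 to 0.66), and Mmp11 was not past it with an offset for GC content (0.53), where 14.0% of all genes were past it. Mmp2 was past the threshold when KO 2 was left out, at 0.70, and its value was 0.14 when KO 1 was left out. Reck was past it without KO 1, at -0.56, and stood at -0.09 without KO 2. In these fits 43.9% of all genes were past the threshold without KO 2 and 50.1% without KO 1.

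**Figure D2:**
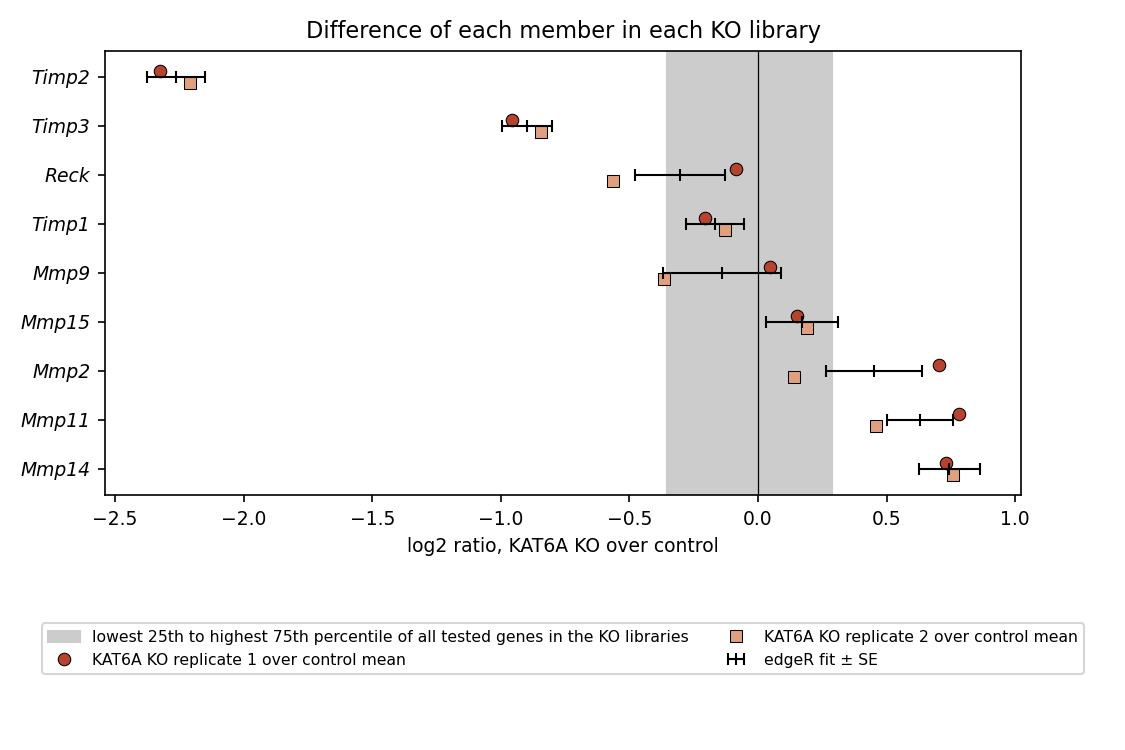
Log2 ratio of each KO library over the mean of the control libraries (circles and squares), with the edgeR log2 fold change and its SE (black), for the 9 genes ordered by fold change. The grey band runs from the lowest 25th to the highest 75th percentile of all tested genes in the KO libraries. Timp2 stands at -2.32 and -2.21, and Mmp2 and Reck show the widest distance between the KO libraries.

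The agreement between KO 1 and KO 2 differed among the members. For Timp1, Timp2, Timp3, Mmp14 and Mmp15 the log2 ratio of KO 1 over KO 2 lay between -0.12 and -0.03, and for Mmp2, Reck, Mmp9 and Mmp11 it was 0.57, 0.48, 0.41 and 0.32. Between control 1 and control 2 the ratios of the 9 genes lay between -0.24 and 0.13. The endoderm markers, whose list holds Lama1, summed to 449 CPM in KO 2 and 231 CPM in KO 1. Timp2 and Timp3 each differed little between KO 1 and KO 2. The part of endoderm or trophoblast cells in the differences was not tested.

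Fold changes over all genes followed transcript GC content, and the median log2 fold change was -0.19 in the lowest GC quintile and 0.22 in the highest. Mmp14 and Mmp15, with 58.3% and 58.4% GC, belong to the highest quintile. Reck, Timp1 and Timp3 belong to the middle quintile, with 49.5% to 52.6% GC, and Timp2, Mmp2, Mmp9 and Mmp11 to the fourth, where the median was 0.11. With a GC offset the log2 fold changes were 0.57 for Mmp14, -0.01 for Mmp15, -2.36 for Timp2 and -0.90 for Timp3.

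Levels were also compared between genes, as CPM per kilobase of annotated exon, with all annotated exons of a gene merged. Such a length can exceed that of the transcripts present, which would understate the level of a gene. In the KO libraries Timp1 (22.3 ± 0.858, SD, n = 2) and Mmp11 (20.5 ± 3.24) stood highest and their library ranges overlapped. Mmp2 (14.8 ± 4.04) came next, followed by Mmp14 (3.79), Timp3 (3.53), Reck (3.14), Mmp15 (2.64), Timp2 (2.50) and Mmp9 (0.683). Beside those of Timp1 and Mmp11, the ranges of Timp3 and Reck and of Reck and Mmp15 overlapped. In the controls the order was Timp1 (24.96 ± 0.95), Mmp11 (13.3 ± 0.487), Timp2 (11.99 ± 0.356), Mmp2 (10.8 ± 0.681), Timp3 (6.58), Reck (3.88), Mmp15 (2.34), Mmp14 (2.26) and Mmp9 (0.754), and only the ranges of Mmp15 and Mmp14 overlapped. Timp2 was thus the eighth in the KO libraries and the third in the controls.

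The summed level of the inhibitors Timp1, Timp2 and Timp3 was 27.4 and 29.1 CPM per kilobase in KO 1 and KO 2, against 44.5 and 42.6 in the controls. The summed level of the 5 metalloproteinases was 47.6 and 37.3 in KO 1 and KO 2, against 30.0 and 29.0 in the controls. The ratio of the Timp sum to the Mmp sum was 0.576 and 0.782 in the KO libraries, against 1.48 and 1.47 in the controls. Of these 2 sums, that of the Timp genes was thus the larger in the controls and the smaller in the KO libraries. Without Timp2, which lies on chromosome 11, the ratio was 0.526 and 0.712 in KO 1 and KO 2, against 1.08 and 1.07 in the controls. The ratio thus depends on the genes summed, and the members were chosen with their fold changes known. The sums leave out Reck and Mmp genes outside the members, such as Mmp17 (5.55 and 5.35 in KO 1 and KO 2, against 3.76 and 3.70 in the controls). Timp1 made up 78.9% and 78.5% of the Timp sum in the KO libraries and 57.7% and 57.0% in the controls, while Timp2 made up 8.73% and 8.91% in the KO libraries and 27.5% and 27.6% in the controls. The ratio of Mmp14 to Timp2, the genes of the complex that activates MMP2, was 1.57 and 1.47 in the KO libraries and 0.178 and 0.2003 in the controls. These are ratios of RNA levels, and the proteins were not measured.

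**Figure D3:**
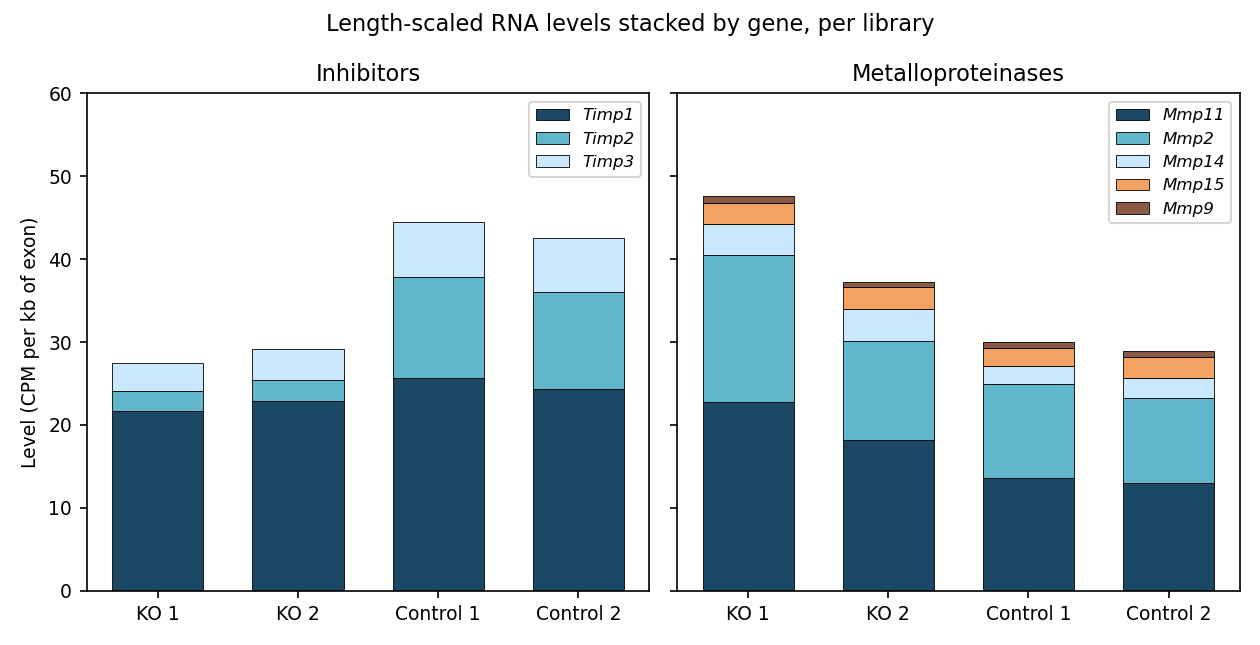
RNA levels in CPM per kilobase of exon, stacked by gene, for the inhibitors (left) and the metalloproteinases (right) in each library. The inhibitor stacks reach 27.4 and 29.1 in the KO libraries and 44.5 and 42.6 in the controls, and the metalloproteinase stacks 47.6 and 37.3 in the KO libraries and 30.0 and 29.0 in the controls.

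Timp2 was set beside the other genes of chromosome 11, because the genes of that chromosome were lower as a whole in the KO libraries. The median log2 fold change of the chromosome's 1319 tested genes was -0.46. Of these genes 536 (40.6%) were called lower, against 845 of the 14793 tested genes outside chromosome 11. Over all tested genes, chromosome 11 included, the share was 8.57%. The 5th percentile was -1.16, and 8 of these genes had a lower log2 fold change than Timp2. Timp2 lay 1.82 below the chromosome's median on the log2 scale in KO 1 and 1.78 below it in KO 2. Of 306 genes of the chromosome whose control level was within 2-fold of that of Timp2, none had a lower fold change, and the lowest stood at -1.98. The 30 tested genes within 1 Mb of Timp2 had a median of -0.34, ranging from -1.28 to 0.97, and 6 of them were called lower. Usp36, a deubiquitinase gene 10.8 kb away, stood at -0.09 ± 0.08 (edgeR adjusted p = 0.496), and Lgals3bp, 37.0 kb away on the other side, at -0.81 ± 0.24 (edgeR adjusted p = 0.070). Cep295nl, which lies within Timp2 on the same strand and shares none of its exon bases, had 2 and 8 counts in KO 1 and KO 2, against 15 and 16 counts in the controls.

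**Figure D4:**
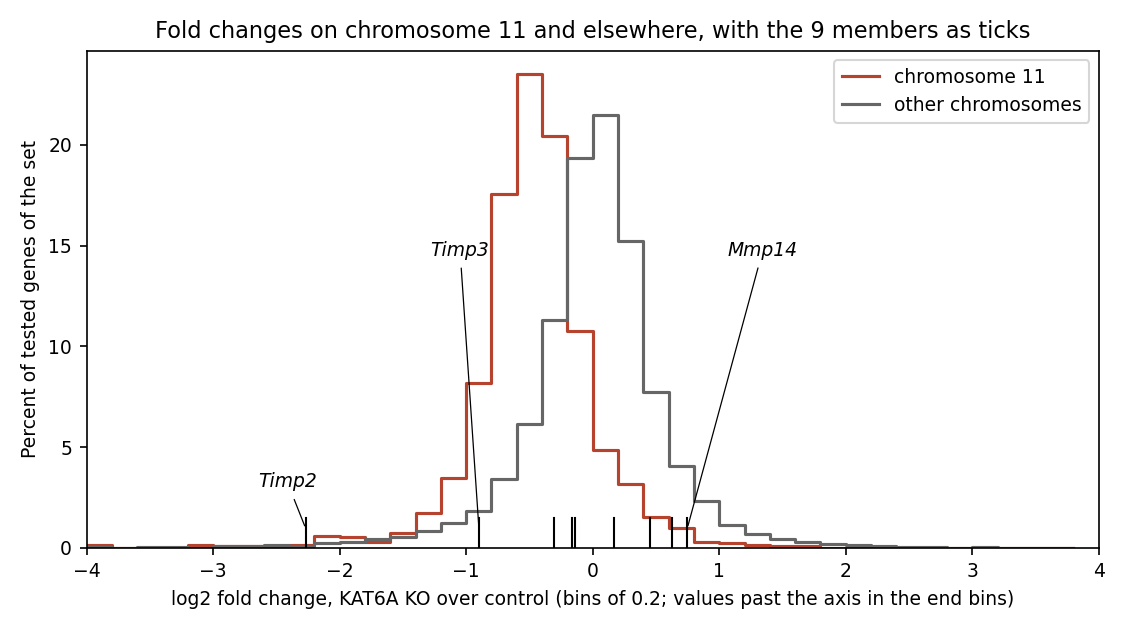
Share of tested genes per bin of log2 fold change, KAT6A KO over Control, on chromosome 11 (red) and on all other chromosomes (grey). Black ticks mark the 9 members, and Timp2 at -2.26 lies left of nearly all of chromosome 11, whose median is -0.46.

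Neighbouring and overlapping genes of the other members were mostly not past the threshold. The same held for tested genes in general, of which 14.3% were past it, so nothing is read from this. Timp3 shares 1733 exon bases, 21.3% of its exon length, with Syn3 on the opposite strand, and Syn3 had 51 and 53 counts in KO 1 and KO 2, against 39 and 48 counts in the controls. Timp1 lies within Syn1 with no shared exon bases, and Syn1 had a log2 fold change of 0.15. Mmp11 shares 155 exon bases, 5.58% of its exon length, with Chchd10 on the opposite strand, a far more abundant gene that rose in the KO libraries (log2 fold change 0.72 ± 0.09, edgeR adjusted p = 0.011). Smarcb1 and the predicted gene Gm867, the nearest neighbours of Mmp11, had log2 fold changes of 0.22 and 1.03 (edgeR adjusted p = 0.165 and 0.061). Whether the counting used strand is not stated, so the values of these overlapping genes are uncertain to the extent of the shared bases. Lpcat2, 1.92 kb beyond Mmp2, fell (log2 fold change -0.85 ± 0.21, edgeR adjusted p = 0.044), and Cfp, 50.7 kb beyond Timp1, rose (0.60 ± 0.15, edgeR adjusted p = 0.045). Neither neighbour of Mmp14, Mrpl52 (0.22) and Lrp10 (-0.11), was past the threshold.

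The genes whose pattern over the 4 libraries was most like that of each Timp were found by the root mean square difference of centred log2 CPM. For Timp2 they were Zfp9 (0.036), Trpv3 on chromosome 11 (0.062) and Nppb (0.092). For Timp3 they were Coa3 (0.015), Jade3 (0.025) and Rffl (0.025), of which Coa3 and Rffl lie on chromosome 11. For Timp1 they were Parn (0.007), Taf12 (0.012) and Ift52 (0.012). With 4 libraries this likeness is a description only.

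Other genes of pericellular proteolysis were followed through lists made by function, although with earlier results of these data known. Of 95 genes in these lists 64 were tested, and 5 rose and 14 fell, with a median log2 fold change of -0.17, against 0.01 over all tested genes. Over all tested genes 5.76% were called higher and 8.57% lower, which are also the shares to set beside each list below. Nothing is read from the list counts. All 19 are named below. Of these 19 calls, 8 kept their call under every one of the 14 alternatives that gave a value (Spock2, Lrp1, Adam10, Adam19, Adamts9, Cd44, Adgra2 and Lamc1), and 11 lost it under at least 1.

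Most other MMP genes were silent or nearly so. Of the 17 found in the count tables, 12 stayed under 1 CPM in every library, 6 of them with no count at all, and 6 were tested, 1 of them (Mmp24) under 1 CPM. Mmp17, which encodes an MMP held in the membrane by a lipid anchor, rose. It had 36.8 and 35.4 CPM in KO 1 and KO 2, against 24.9 and 24.5 CPM in the controls (log2 fold change 0.55 ± 0.10, edgeR adjusted p = 0.021), but its call was lost on leaving out control 1 or control 2 (edgeR adjusted p = 0.205 and 0.218) and with the GC offset (0.38, edgeR adjusted p = 0.056). Of 6 genes tested in the list of other inhibitors and related proteins, 1 rose. This was Spock2, a secreted proteoglycan of the testican family, with 41.8 and 32.7 CPM in KO 1 and KO 2, against 19.8 and 19.5 CPM in the controls (log2 fold change 0.92 ± 0.14, edgeR adjusted p = 0.015). Its place in the list does not show that it inhibits MMPs, and its action on them was not tested. Timp4, the remaining TIMP gene, stayed under 1 CPM in every library.

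The ADAM proteases, which release growth factors and receptors from the cell surface and are inhibited by TIMPs, included 3 that fell among 7 tested. Adam10 had 47.2 and 41.4 CPM in KO 1 and KO 2, against 86.9 and 84.9 CPM in the controls (log2 fold change -0.96 ± 0.10, edgeR adjusted p = 0.008). Adam19 on chromosome 11 fell by 0.89 and Adam17 by 0.38 on the log2 scale (edgeR adjusted p = 0.006 and 0.035), and the call of Adam17 was lost on leaving out control 1 or control 2 (edgeR adjusted p = 0.290 and 0.399) and with the GC offset (edgeR adjusted p = 0.066). Of 13 ADAMTS genes tested, which encode secreted proteases of proteoglycans and procollagens, 1 rose and 2 fell. Adamts9 had 23.3 and 37.0 CPM in KO 1 and KO 2, against 66.7 and 62.8 CPM in the controls (log2 fold change -1.11 ± 0.21, edgeR adjusted p = 0.022). Adamts15 fell by 1.23 (edgeR adjusted p = 0.028) and was no longer called without control 2 (edgeR adjusted p = 0.064). Adamts14 rose by 0.59 (edgeR adjusted p = 0.030) and was no longer called when control 1 or control 2 was left out (edgeR adjusted p = 0.165 and 0.206) or with the GC offset (edgeR adjusted p = 0.135). Of 3 astacins and pappalysins tested, Bmp1, the procollagen C-proteinase, fell by 0.59 (edgeR adjusted p = 0.034), and it was no longer called on leaving out control 1 or control 2 (edgeR adjusted p = 0.358 and 0.211).

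Of the 5 proprotein convertases, which include the enzymes that cut the inhibitory part off MMP11 and MMP14, 0 were past the threshold in edgeR, DESeq2 or limma, and 1 (Pcsk4) had an unadjusted edgeR p under 0.05. The most abundant of them, Pcsk6, stood at a log2 fold change of 0.16 ± 0.08 (edgeR adjusted p = 0.229). Of 5 genes of the plasminogen system tested, 1 fell. This was Plat, the tissue plasminogen activator, which is also a marker of parietal endoderm, with 2.27 and 5.86 CPM in KO 1 and KO 2, against 12.2 and 11.6 CPM in the controls (log2 fold change -1.56 ± 0.38, edgeR adjusted p = 0.044). Its call was lost under 4 alternatives, among them no filter on low counts (edgeR adjusted p = 0.141), and its log2 fold change was -1.02 without KO 1 and -2.39 without KO 2.

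Of 9 genes for binding partners of these proteins, 1 rose and 3 fell. Cd44, a hyaluronan receptor that docks MMP14 and MMP9 at the surface, had 1.45 and 1.27 CPM in KO 1 and KO 2, against 5.54 and 5.35 CPM in the controls (log2 fold change -1.996 ± 0.20, edgeR adjusted p = 0.007). Adgra2, which works with RECK as a receptor for WNT7 ligands, fell by 1.00 (edgeR adjusted p = 0.012). Itgb1, the beta-1 integrin, fell by 0.52 (edgeR adjusted p = 0.017), a call that was lost on leaving out control 1 or control 2 (edgeR adjusted p = 0.086 and 0.111). Lrp1, an endocytic receptor that clears MMPs and TIMPs, had 129 and 100.4 CPM in KO 1 and KO 2, against 64.6 and 57.7 CPM in the controls (log2 fold change 0.91 ± 0.14, edgeR adjusted p = 0.015).

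Of 10 matrix genes whose products MMPs cleave, 1 rose and 4 fell. Lama1, Lamb1 and Lamc1, the chains of laminin-111, fell by 1.41, 1.06 and 0.99 on the log2 scale (edgeR adjusted p = 0.023, 0.026 and 0.012), and Col4a1, a chain of type IV collagen, fell by 1.52 (edgeR adjusted p = 0.047). The 4 genes are also highly expressed in parietal endoderm, and the endoderm marker list, which holds Lama1, had a median log2 fold change of -1.66. Their part in each other's values was not tested. Like that list, Col4a1 was lower in KO 1 (272 CPM) than in KO 2 (686 CPM), against 1413 and 1341 CPM in the controls. The call of Col4a1 was lost on leaving out control 1 or control 2 (edgeR adjusted p = 0.609 and 0.599) and under 5 other alternatives, among them DESeq2 (adjusted p = 0.075), and its log2 fold change was -1.01 without KO 1 and -2.34 without KO 2. Those of Lama1 and Lamb1 were lost when low counts were not filtered (edgeR adjusted p = 0.233 and 0.123). Fn1, fibronectin, rose by 0.41 (edgeR adjusted p = 0.027) and was no longer called on leaving out control 1 or control 2 (edgeR adjusted p = 0.286 and 0.342).

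**Figure D5:**
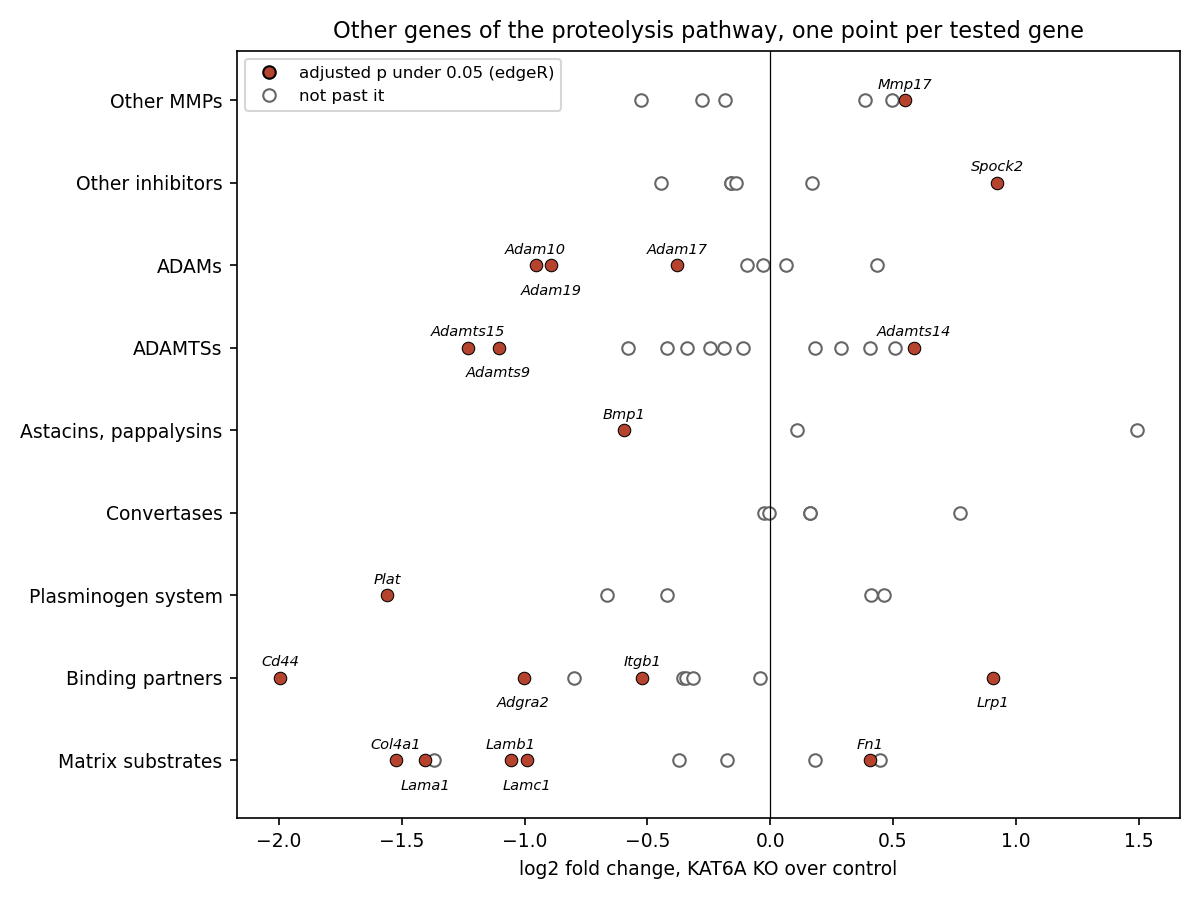
Log2 fold change, KAT6A KO over Control, of each tested gene in the lists of pericellular proteolysis, 1 point per gene. Filled points passed an adjusted p of 0.05 in the edgeR fit and are named, and open points did not. Cd44 lies lowest among the named genes at -1.996, and Spock2 highest at 0.92.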

How the data were processed

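Polyadenylated RNA from E14TG2a cells was sequenced from stranded libraries in 2 KAT6A KO and 2 Control samples, grouped by sample title. Deposited whole-number counts per gene symbol came from featureCounts, and DESeq2 was also used, per the submitters' processing notes. The aligner, build, annotation and strand setting are not stated in the sources used. The authors' deposited normalized counts (a signal) equal the counts divided by 1 factor per library (0.945, 0.848, 1.11 and 1.15 for KO 1, KO 2, Control 1 and Control 2). Columns of the authors' deposited comparison were identified from values and order: mean signal, log2 fold change, its standard error and Wald statistic (scores), p-value and adjusted p-value. These fold changes were slightly smaller than those computed here.

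Counts were analysed with edgeR 4.0.16 in R 4.3.3: filterByExpr, TMM, robust quasi-likelihood test by group, Benjamini-Hochberg adjustment over all 16112 genes, threshold 0.05. Each SE was the absolute log2 fold change divided by the root of its F value. Genes kept by the filter held 99.9% of counts. Replicate pairs differed beyond sampling noise (mean chi-square per gene 34.4 for KO, 3.70 for Control). Positions and exon lengths are from GENCODE M21 (GRCm38), matching 97.1% of symbols. The procedure was tested on simulated data. Alternatives used DESeq2 1.42.0, limma 3.58.1, other scaling and filters, a lowess GC offset (span 0.3), exclusion of chromosome 11 and of each library. Members and gene lists were chosen with earlier results of these data known, and 1 gene of the lists is not reported here. Named genes were the members, up to 2 called genes per direction and list, every called gene in lists with 5 or fewer (else, with none called, the most abundant), neighbours, and the 3 genes most like each Timp. Tables and plots used scipy 1.17.1, matplotlib 3.10.9 and pandas 2.3.3 (Python 3.11.15).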

Additional observations from a re-analysis of the deposited data

How the results depend on the processing

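Over all genes, the counts called higher and lower were 928 and 1381. They were 1613 and 2147 with the replicate number as a block and 519 and 697 without chromosome 11, and they ranged from 254 to 4020 and from 648 to 4400 when 1 library was left out. Whether the replicate numbers pair the samples is not stated. The correlation of same-numbered deviations was 0.09 over 16112 genes, and 2 pairs are too few to settle it. With the block, 8 other pathway genes were called higher in place of 5, and Mmp2 was past the threshold (log2 fold change 0.43). The block ended the calls of Col4a1 and Lama1 (edgeR adjusted p = 0.328 and 0.135). With the GC offset, 3 other pathway genes were called higher, and Mmp11 was not past the threshold (0.53). Mmp15 changed sign, to -0.011 with the GC offset and -0.0084 with the GC offset and the block. Left-out libraries gave 2 to 5 members called, 2 to 15 other pathway genes called higher and 10 to 25 lower. The share called among all genes fell without a control library and rose without a KO library, as given above with the members. The counts of members and other pathway genes moved the same way, and nothing is read from them. The same fits gave log2 fold changes of 0.46 to 0.78 for Mmp11, 0.68 to 0.80 for Mmp14 and 0.14 to 0.70 for Mmp2. They gave -0.564 to -0.0885 for Reck and -0.37 to 0.0435 for Mmp9, which changed sign without KO 2 (0.0435). Timp2 less the chromosome 11 median was -1.81, and -1.87 with the GC offset, with or without the block, and -1.84 to -1.77 with 1 library left out. Kat6a ranged from -0.74 to 0.75, changing sign without KO 1. Searching the gene's strand alone found the GC box in 4 and the CCAAT box in 2 of 7 windows, against 7 and 4 on either strand. Timp2 (-2.36 to -2.21) and Timp3 (-0.96 to -0.84) kept their side of the threshold under every alternative that gave a value. With 2 libraries a group, differences near the distance between KO 1 and KO 2 could not be resolved, and where 1 library of a group was left, its spread was taken from the other group. The cause of these changes was not tested.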
